A study of Mus musculus with 18 samples.

Results

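Retinas of vehicle-injected mouse eyes were compared between day 30 and day 7 after the injection. The comparison took the samples whose titles name BSS, the vehicle, at either day, which gave 3 arrays per day and 6 of the 18 arrays of the series. It covered the probe sets that name exactly 1 gene, 34945 of 45101, and after 1 probe set was kept per gene it held 18193 genes. The animals were male C57BL6/J mice, 2 months old per the labels, and all had received an intravitreal injection at day 0, of BSS here and of dexamethasone (DEX) or triamcinolone (TAA) in the other 4 groups of 3 arrays. The replicates are biological per the labels, which do not say whether an array holds 1 retina or several. The 23 days between the groups are also 23 days of age, so the time since the injection, the age of the mice and any handling that followed the day cannot be told apart, and eyes without an injection were not analysed here.

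The retina is a layered sheet of rod and cone photoreceptors, interneurons and ganglion cells, held by Müller glia and patrolled by microglia. An injection into the vitreous passes a needle through the wall of the eye, and glial and immune genes are known to respond to such an injury, which is why vehicle eyes serve as controls for injected drugs. The lens, the ciliary body and the pigment epithelium lie next to the retina and can be carried along in a dissection. Many retinal genes also follow the time of day, and the hour at which tissue was taken is not given in the sources used here.

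The deposited values are log2 values relative to the median of the 18 arrays for each probe set, so that 0 is the median array and a value says nothing of how strongly a gene is expressed. For that reason the defining markers of the retina could not be checked as present or absent, only for how far they differed between arrays. Each difference below is day 30 minus day 7 in log2 units, with n = 3 arrays per group. It is given ± the standard error of the fit, which draws on the spread of all 18 arrays and not of the vehicle arrays alone. In whole tissue, fewer cells of a type and less RNA per cell cannot be told apart. Across genes, BSS day 7 replicate 1 stood apart from its group mates, with correlations of -0.17 and -0.21, against 0.46 between replicates 2 and 3, and BSS day 30 replicates 1 and 3 carried high values of lens genes. Values without these arrays are given beside the main results that they touch. The 3' minus 5' values of the Actb control probe sets lay between -0.11 and 0.12 on the 6 vehicle arrays, and those of Gapdh between -0.14 and 0.03. Each probe set is centred on its own median, so these values compare arrays and do not measure RNA quality.

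Few genes passed the test between the days, and those that did were all lower at day 30. By limma over all 18 arrays with Benjamini-Hochberg adjustment, 5 of 18193 genes passed at 0.05 (0.0275%), all 5 lower, and no gene passed in the higher direction. The count depended on the processing, with 50 genes after quantile normalization (9 higher) and 527 with array weights (166 higher). An unadjusted p under 0.05 was found for 1420 genes (7.81%), 814 lower (4.47%) and 606 higher (3.33%), where chance gives 909.7. The median size of a difference was 0.12, with 49.4% of all genes below 0 and 50.6% above. The 3 arrays of each day did not overlap in 2219 genes that were lower at day 30 (12.2%) and 1927 that were higher (10.6%). In either direction this was 22.8% of all genes. For 3 against 3 arrays in random order the probability of no overlap is 0.10.

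Jchain, which encodes the joining chain that links immunoglobulin A and M units into larger antibodies and is known as a gene of plasma cells, had the largest fall. Its values were 0.15, 0.41 and 0.52 on the day 7 arrays and -1.15, -1.03 and -0.68 on the day 30 arrays. The groups did not overlap, and the gap between them was wider than the range within either. The fall was 1.32 ± 0.16, or 2.49-fold (limma adjusted p = 0.00419).

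Col19a1 encodes a chain of collagen XIX, a collagen of basement membrane zones that some neurons also make. Its probe set lay at 0.71, 0.72 and 0.94 at day 7 and at -0.68, -0.47 and -0.25 at day 30. It fell by 1.26 ± 0.18, or 2.40-fold (limma adjusted p = 0.0123). All 3 of its probe sets were lower without overlap, with differences from -1.32 to -0.49. Rhobtb3, which encodes a protein with BTB domains, lay at 0.56, 0.55 and 0.35 at day 7 and at -0.48, -0.71 and -0.71 at day 30. It fell by 1.12 ± 0.16 (2.17-fold, limma adjusted p = 0.0123). Its 5 probe sets disagreed, with 3 below 0, 2 of them without overlap, and a range from -1.12 to 0.07, and with their mean in place of 1 probe set Rhobtb3 was at -0.32 and did not pass.

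Foxp2, a forkhead transcription factor of neurons, lay at 0.32, 0.67 and 0.80 at day 7 and at -0.35, -0.24 and -0.55 at day 30. The fall was 0.98 ± 0.16, or 1.97-fold (limma adjusted p = 0.0325). Of its 6 probe sets, 4 lay below 0, 2 of them without overlap, and the range ran from -0.98 to 0.31. The mean of the probe sets gave -0.18 for Foxp2, which did not pass, so this call and that of Rhobtb3 belong to 1 probe set each. The other call was the transcript 1700096K18Rik, which has a clone name only and is named because the count is small. It lay at 0.02, 0.32 and 0.25 at day 7 and at -0.73, -0.59 and -0.71 at day 30, a fall of 0.88 ± 0.13 on its only probe set (limma adjusted p = 0.0193).

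**Figure D1:**
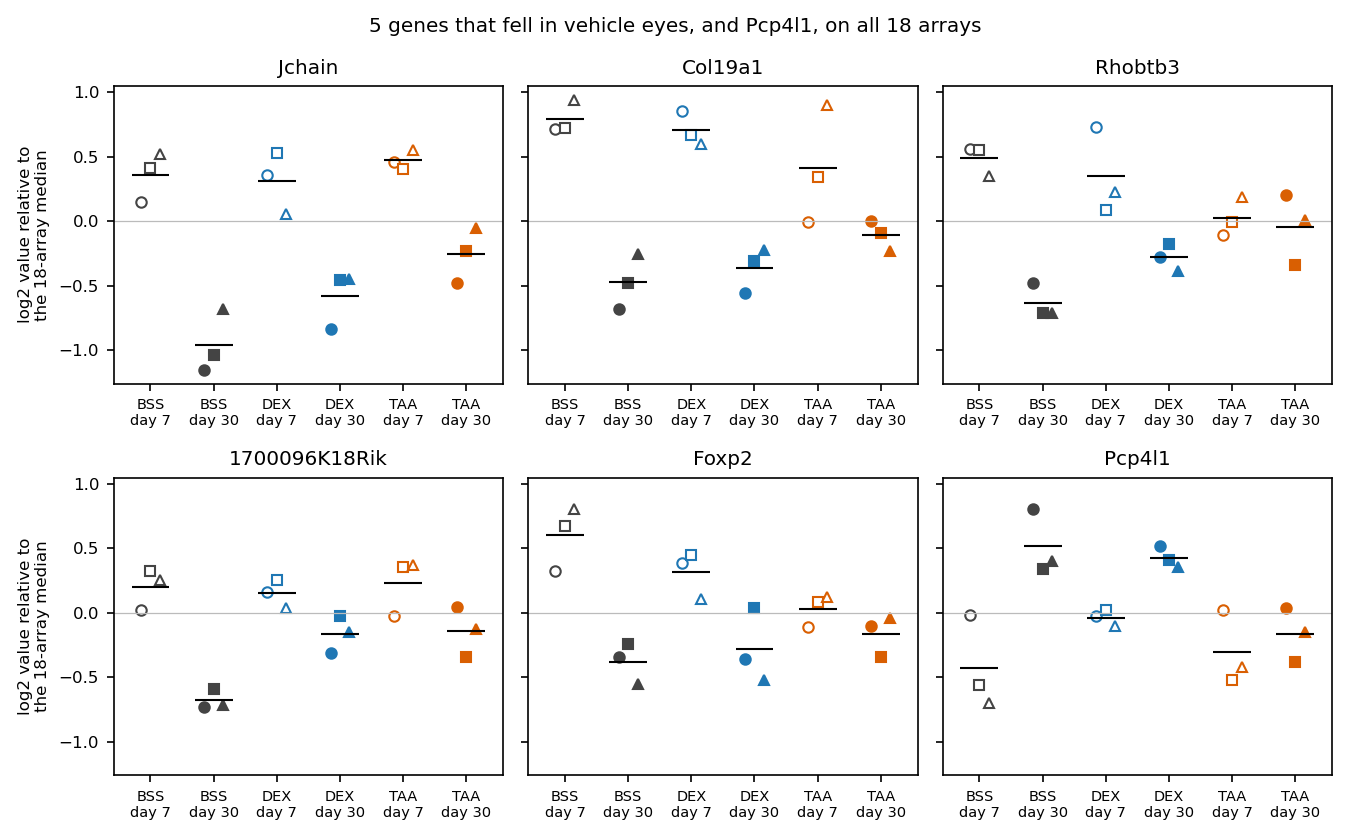
Relative log2 values (vertical axis) of 5 genes that fell in vehicle eyes and of Pcp4l1 on all 18 arrays, by treatment and day (horizontal axis). Circles, squares and triangles are replicates 1, 2 and 3, open at day 7 and filled at day 30, and the bars are group means. In vehicle eyes the day 30 arrays of Jchain lie between -1.15 and -0.68, below all day 7 arrays, which start at 0.15.

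Leaving out 1 vehicle array at a time left 0 to 5 calls. None was left without BSS day 7 replicate 2, BSS day 7 replicate 3, BSS day 30 replicate 1 or BSS day 30 replicate 2. Without BSS day 30 replicate 3 Jchain and Col19a1 passed, and without BSS day 7 replicate 1, the array that stood apart, 5 genes passed, of which 4 were among the 5. The differences themselves moved less, from -1.45 to -1.22 for Jchain and from -1.37 to -1.16 for Col19a1. For Rhobtb3 they ran from -1.20 to -1.08 and for Foxp2 from -1.12 to -0.88. With BSS day 30 replicates 1 and 3 left out, Jchain was at -1.39, Col19a1 at -1.27, Rhobtb3 at -1.20 and Foxp2 at -0.84, and no gene passed, since day 30 then held 1 array whose spread was assumed to be that of the other groups.

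Since these genes were lower together, the 250 bases before their transcription start are shown for the 4 that matched the RefSeq promoter table (GRCm38.p6) by symbol, of 5. They lie at chr5:88527898-88528147 on the minus strand for Jchain, chr1:24587438-24587687 on the minus strand for Col19a1, chr13:75943825-75944074 on the minus strand for Rhobtb3 and chr5:25529768-25530017 on the plus strand for 1700096K18Rik. The Col19a1 window lies inside the gene as annotated, chr1:24257683-24587922, so it precedes a start within the gene and not the outermost one. Each is printed in the direction of transcription. Capitals mark matches on either strand to 4 motifs, the E-box CACGTG, the TATA box TATAAA, the CCAAT box CCAAT and the GC box GGGCGG.
Jchain: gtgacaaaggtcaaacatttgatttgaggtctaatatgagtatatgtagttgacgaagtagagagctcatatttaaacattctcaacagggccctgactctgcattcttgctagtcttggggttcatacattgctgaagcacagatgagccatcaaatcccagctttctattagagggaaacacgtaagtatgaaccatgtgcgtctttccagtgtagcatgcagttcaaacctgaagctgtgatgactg
Col19a1: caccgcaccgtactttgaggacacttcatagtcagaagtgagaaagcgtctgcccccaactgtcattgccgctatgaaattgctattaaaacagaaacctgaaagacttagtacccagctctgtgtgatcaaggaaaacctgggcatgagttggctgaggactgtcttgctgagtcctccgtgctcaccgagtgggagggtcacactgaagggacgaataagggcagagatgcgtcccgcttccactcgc
Rhobtb3: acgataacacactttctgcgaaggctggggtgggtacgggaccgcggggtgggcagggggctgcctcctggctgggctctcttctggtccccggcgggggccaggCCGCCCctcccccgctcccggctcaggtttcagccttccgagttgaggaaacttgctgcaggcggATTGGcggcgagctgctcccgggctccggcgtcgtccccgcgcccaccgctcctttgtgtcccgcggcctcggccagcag
1700096K18Rik: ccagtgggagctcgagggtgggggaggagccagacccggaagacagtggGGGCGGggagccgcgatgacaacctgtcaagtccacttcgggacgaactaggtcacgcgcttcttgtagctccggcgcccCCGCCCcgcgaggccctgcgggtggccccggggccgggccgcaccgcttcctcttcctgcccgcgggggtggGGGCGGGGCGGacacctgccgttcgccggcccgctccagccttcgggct
Rhobtb3 holds a CCAAT box on the reverse strand 80 bases before its start and a GC box, also reversed, at 145 bases. The window of 1700096K18Rik holds 4 GC boxes, at 201, 121 (reversed), 49 and 44 bases, the last 2 overlapping by 1 base. Neither Jchain nor Col19a1 has a match to any of the 4 motifs in this window. Among 32851 promoters of the same length, 6.02% hold the E-box, 12.4% the TATA box, 33.8% the CCAAT box and 32.7% the GC box.

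A further 8 genes were named as the next in size on the lower side, from the 200 genes of smallest p, and none of them passed. Adcy1, a calcium-stimulated adenylyl cyclase of neurons, lay at 0.19, 0.31 and 0.35 at day 7 and at -0.39, -0.52 and -0.55 at day 30. The difference was -0.77 ± 0.15 (limma adjusted p = 0.136). Myo5b, a myosin motor that moves recycling endosomes, was at -0.75 ± 0.15 (adjusted p = 0.170), with day 7 arrays at 0.30, 0.33 and 0.40 and day 30 arrays at -0.23, -0.60 and -0.39. Both genes showed arrays close together within each day. The others were Erich6 (-0.96 ± 0.21), the zinc finger genes Zbed5 (-0.87 ± 0.20) and Zc3h6 (-0.87 ± 0.26), Dnaaf4, an assembly factor of ciliary dyneins (-0.82 ± 0.26), Pdzph1 (-0.81 ± 0.16) and Nsun3, a methyltransferase of mitochondrial transfer RNA (-0.75 ± 0.18).

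On the higher side the gene of smallest p was Pcp4l1, which encodes a small protein related to the calmodulin regulator Pcp4. It lay at -0.02, -0.56 and -0.70 at day 7 and at 0.80, 0.34 and 0.40 at day 30. The arrays did not overlap, and the difference was 0.94 ± 0.18, or 1.92-fold, which did not pass (limma adjusted p = 0.136). Without BSS day 7 replicate 1, the highest day 7 array, it was 1.14 and passed (limma adjusted p = 0.0249). In the other fits without 1 array the difference of Pcp4l1 went down to 0.80 and its limma adjusted p up to 0.760. Scgn, which encodes the calcium-binding protein secretagogin of cone bipolar cells, lay at -0.08, -0.25 and -0.13 at day 7 and at 0.48, 0.39 and 0.65 at day 30. Its difference was 0.67 ± 0.14 (limma adjusted p = 0.197).

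The other genes named on that side included Lgmn, the lysosomal protease legumain (0.85 ± 0.25), Retnla, a secreted protein of alternatively activated macrophages (0.75 ± 0.18), Irf7, a transcription factor of the interferon response (0.60 ± 0.16), Icos, a costimulatory receptor of T cells (0.56 ± 0.15), and Havcr1, a receptor for phosphatidylserine (0.58 ± 0.16). Haus2, a subunit of the augmin complex of the spindle, was at 0.96 ± 0.30. Its day 7 arrays were 0.15, -1.05 and -1.06, so the low arrays were replicates 2 and 3 of day 7, and without BSS day 7 replicate 1 it was at 1.36. The lowest value of Haus2 in the fits without 1 array was 0.75. The remaining named genes were Ppp6r3 (0.65 ± 0.20), the kinase gene Sik2 (0.59 ± 0.16), Ndst3, which modifies heparan sulfate (0.58 ± 0.16), and the carboxypeptidase gene Cpd (0.55 ± 0.16).

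**Figure D2:**
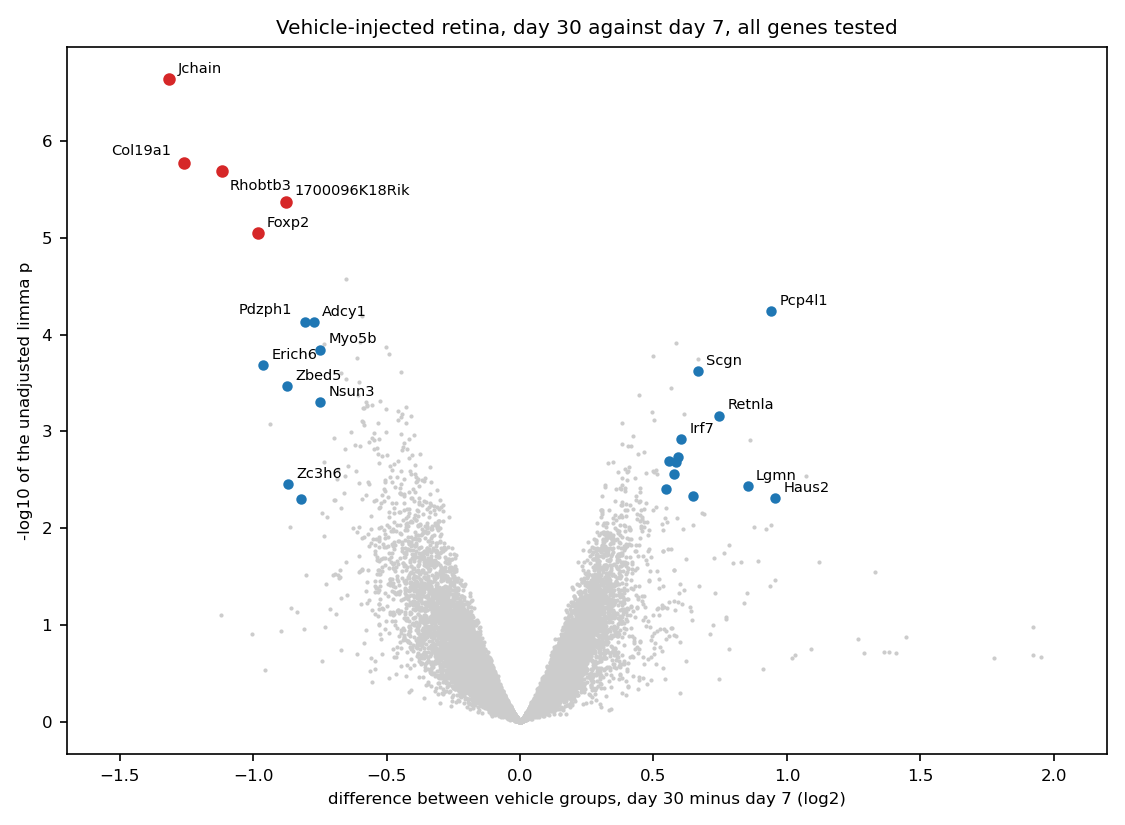
Difference between the vehicle groups (horizontal axis, day 30 minus day 7, log2) against the -log10 of the unadjusted limma p (vertical axis) for 18193 genes in grey. Red points are the 5 genes that passed after adjustment and blue points the other named genes, and all 5 red points lie on the lower side, from -1.32 for Jchain to -0.88 for 1700096K18Rik.

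The change between the days was also measured in the eyes given DEX or TAA, which share no array with the vehicle eyes. In DEX eyes 479 genes passed (2.63%) and in TAA eyes none did (0%; 2239 had an unadjusted p under 0.05). Jchain lay at 0.36, 0.53 and 0.05 at day 7 and at -0.83, -0.45 and -0.45 at day 30 in DEX eyes, a fall of 0.89 (limma adjusted p = 0.0192). In TAA eyes it lay at 0.46, 0.40 and 0.55 at day 7 and at -0.48, -0.23 and -0.05 at day 30, a difference of -0.72 that did not pass. Over the 3 treatments, then, every day 30 array of Jchain lay below every day 7 array, 9 against 9. This held for 32 of 18193 genes (0.176%), among them Myo5b and Car8, and 4 genes (0.022%) had all 9 day 30 arrays above.

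Col19a1 fell in DEX eyes as well, by 1.07 (limma adjusted p = 0.0148), with arrays at 0.85, 0.67 and 0.59 at day 7 and at -0.56, -0.31 and -0.22 at day 30. In TAA eyes it was at -0.52 and its arrays overlapped, since TAA day 7 replicate 1 lay at 0.00. Rhobtb3 fell in DEX eyes by 0.62 (adjusted p = 0.0471) and was at -0.07 in TAA eyes. Foxp2 did not pass in DEX eyes, at -0.59 (adjusted p = 0.0534), and was at -0.19 in TAA eyes. The values of 1700096K18Rik were -0.31 and -0.37, and neither passed. All 5 genes were therefore below 0 in both drugs, where 53.7% of all genes lay below 0 in DEX eyes and 52.2% in TAA eyes.

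Among the 12 genes named on the lower side, 12 lay below 0 in DEX eyes and 11 in TAA eyes, the exception being Erich6 at 0.17. Adcy1 and Myo5b fell in DEX eyes, by 0.93 (limma adjusted p = 0.0148) and 1.01 (adjusted p = 0.0134). Of the 12 named on the higher side, 9 lay above 0 in DEX eyes and 7 in TAA eyes, against 46.3% and 47.8% of all genes. Pcp4l1 was at 0.46 and 0.14 there, and Scgn went below 0, at -0.12 and -0.32. Of the 2219 genes lower without overlap in vehicle eyes, 69.3% lay below 0 in DEX eyes and 74.8% in TAA eyes, and of the 1927 higher genes 62.8% and 66.6% lay above 0.

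No gene passed the test of whether its difference between the days was itself different in vehicle and in drug-treated eyes. For vehicle against DEX, 0 of 18193 genes passed in limma (0%), the smallest adjusted p being 0.284, while 1558 genes reached an unadjusted p under 0.05 (8.56%). For vehicle against TAA, 0 passed (0%), the smallest adjusted p being 0.473, and 1094 reached an unadjusted p under 0.05 (6.01%). With array weights these tests gave 1728 and 17 genes. For the genes that fell in vehicle eyes, vehicle minus DEX was -0.43 for Jchain, -0.19 for Col19a1 and -0.49 for Rhobtb3. It was -0.57 for 1700096K18Rik and -0.39 for Foxp2. None passed (limma adjusted p from 0.440 for 1700096K18Rik to 0.866 for Col19a1). These genes were picked by their fall in vehicle eyes, so a larger fall there is no measure of a difference from DEX eyes. Gfap, the intermediate filament gene of reactive glia, shows how wide these differences were. In vehicle eyes it lay at -0.06, -0.76 and 0.11 at day 7 and at 0.43, -0.19 and -0.01 at day 30, a difference of 0.31 ± 0.40 with overlapping arrays. In DEX eyes it fell by 1.79 (limma adjusted p = 0.0310), and vehicle minus DEX was 2.10 ± 0.57, which did not pass (adjusted p = 0.406). The 21 reactive gliosis genes measured had a median of 0.16 in vehicle eyes, with 13 above 0, against -0.72 in DEX eyes and -0.77 in TAA eyes, where 20 and 18 lay below 0. Without BSS day 30 replicate 3 the vehicle median was -0.04, and without BSS day 30 replicate 2 it was 0.39.

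Genes of retinal cell types were read from lists of 38 cell types and pathways, by their counts and medians beside those of all genes (median 0.00, 49.4% below 0). None of the list members passed. Ganglion cells, whose axons form the optic nerve, had 17 of 18 measured genes below 0 and a median of -0.16. In 4 of them (22.2%, against 12.2% of all genes) the day 30 arrays lay wholly below. Pou4f1, the transcription factor that marks many ganglion cells, lay at -0.02, 0.51 and 0.26 at day 7 and at -0.40, -0.37 and -0.50 at day 30 (-0.68 ± 0.28, limma adjusted p = 0.576). Ebf1, another transcription factor of these neurons, was at -0.44 ± 0.17, Nefh, the heavy neurofilament gene of large axons, at -0.26 ± 0.14, and Ebf3 at -0.21 ± 0.18. The exception was the light neurofilament gene Nefl (0.21 ± 0.17). The array medians of the list were 0.10, 0.11 and 0.01 at day 7 and 0.04, -0.15 and -0.15 at day 30. BSS day 30 replicate 1 thus lay among the day 7 arrays. Between 16 and 17 of the 18 lay below 0 in each fit without 1 array, with medians from -0.28 without BSS day 30 replicate 1 to -0.10 without BSS day 7 replicate 1, and 16 lay below 0 in TAA eyes but 9 in DEX eyes.

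Müller glia, which recycle glutamate and buffer potassium, had 16 of 20 genes above 0 with a median of 0.07, and 12 to 16 above 0 when BSS day 7 replicates, BSS day 30 replicates or both lens-high arrays were left out. Glul, their glutamine synthetase, lay at -0.09, -0.24 and -0.23 at day 7 and at 0.11, 0.00 and 0.18 at day 30 (0.28 ± 0.11, limma adjusted p = 0.552). The water channel gene Aqp4 was at 0.29 ± 0.27 without overlap, the lipid enzyme gene Acsl3 at 0.09 ± 0.20, and the carbonic anhydrase gene Car14 at -0.20 ± 0.12. Slc1a3, the glutamate transporter of these cells, was at 0.51 ± 0.26, but BSS day 7 replicate 1 lay at 0.32 among the day 30 values, and without that array it was at 0.80. Its lowest value in the fits without 1 array was 0.36. In DEX and in TAA eyes 14 of the 20 lay below 0.

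The photoreceptor genes lay near the background. Rods had 12 of 20 genes below 0 and a median of -0.03. In each direction 2 genes did not overlap (10%, against 10.6% of all genes higher and 12.2% lower). Guca1b, a calcium sensor of the guanylate cyclases, was at 0.40 ± 0.18 and the disc rim gene Prph2 at 0.31 ± 0.21, while the rod arrestin gene Sag was at -0.15 ± 0.11 and Guca1a at -0.15 ± 0.12. Among 13 cone genes, 8 lay below 0. Arr3, the cone arrestin gene, lay at 0.12, 0.48 and 0.27 at day 7 and at -0.35, -0.18 and -0.80 at day 30 (-0.73 ± 0.26, limma adjusted p = 0.532). Pde6c, the cone phosphodiesterase, was at -0.29 ± 0.12, and the cone opsin gene Opn1sw, whose BSS day 7 replicate 1 was high at 0.54, at 0.32 ± 0.31, or 0.62 without that array. The lowest value of Opn1sw in the fits without 1 array was 0.16.

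In bipolar cells, which carry the photoreceptor signal inward, 10 of 16 genes lay above 0 with a median of 0.07. Besides Scgn, the arrays did not overlap for Trpm1, the cation channel of ON bipolar cells (0.39 ± 0.15), and Cabp5, a calcium-binding protein (0.37 ± 0.15). These 3 higher genes were 18.8% of the list, against 10.6% of all genes, and 1 gene was lower (6.25%, against 12.2%). Car8, a carbonic anhydrase relative, was on the other side, at 0.22, 0.18 and 0.27 at day 7 and at -0.15, -0.04 and -0.31 at day 30 (-0.39 ± 0.13, limma adjusted p = 0.522). It fell in DEX eyes by 0.73 (adjusted p = 0.0192). In both drugs 12 of the 16 bipolar genes lay below 0. Among 19 amacrine and horizontal cell genes 13 lay above 0, and Calb1, the calbindin gene of horizontal cells, was furthest from 0 at -0.74 ± 0.24, with arrays at 0.00, 0.34 and 0.04 at day 7 and at -0.39, -0.48 and -0.97 at day 30.

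**Figure D3:**
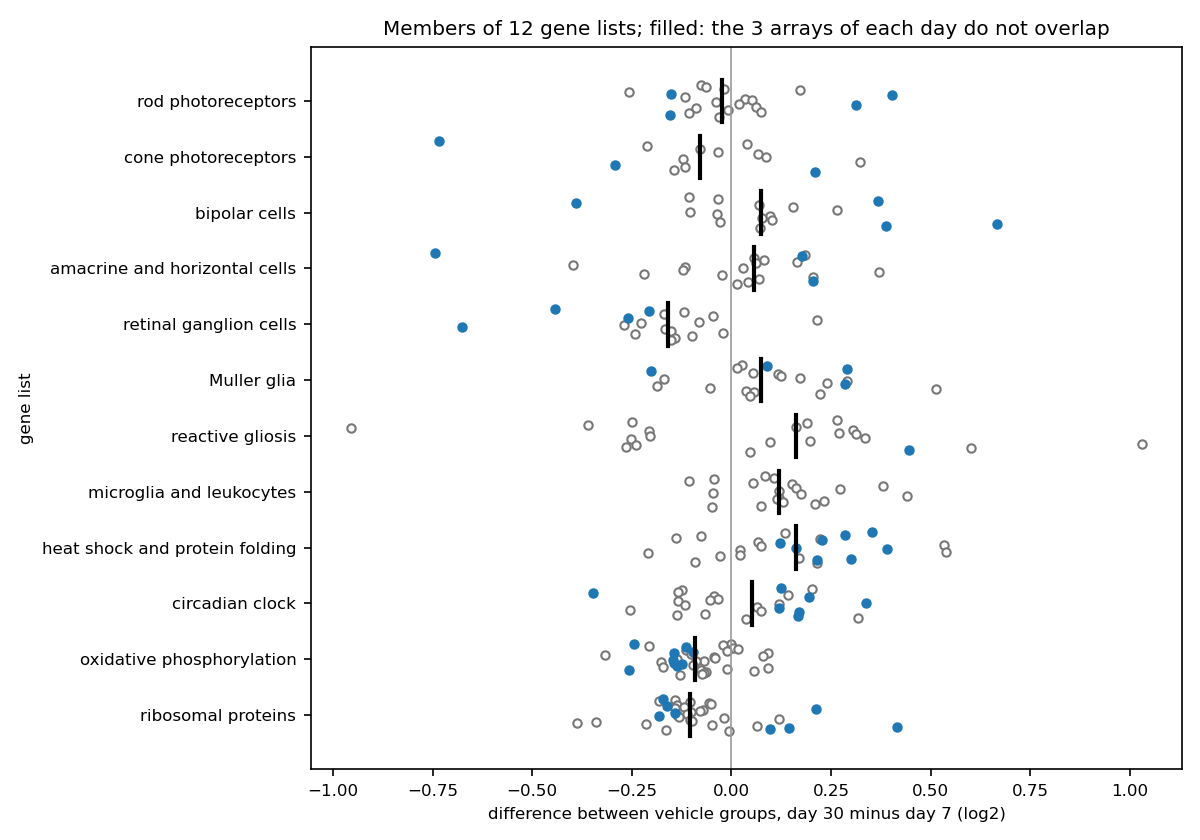
Differences of single genes (horizontal axis, day 30 minus day 7, log2) in 12 gene lists (vertical axis). Each point is a gene, filled where the 3 arrays of the days do not overlap, and the black bars are list medians, which run from -0.16 for ganglion cells to 0.16 for heat shock and reactive gliosis genes.

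Synaptic genes were divided. Of 31, 14 lay above 0 and 17 below, with 5 higher (16.1%, against 10.6% of all genes) and 4 lower (12.9%, against 12.2%) without overlap. The AMPA receptor subunit gene Gria2 was at 0.48 ± 0.17, the vesicular glutamate transporter gene Slc17a7 at 0.40 ± 0.43 and the vesicle protein gene Syp at 0.32 ± 0.24, while Rims2, a protein of the active zone, was at -0.38 ± 0.15. In the myelin list, which marks optic nerve tissue, 10 of 13 genes lay above 0 and the arrays did not overlap for Mag (0.26 ± 0.10), Cnp (0.26 ± 0.17) and Sox10 (0.29 ± 0.21), 3 of 13 or 23.1%, against 10.6% of all genes. The median of 0.12 ran from 0.05 without BSS day 30 replicate 2 to 0.21 without BSS day 7 replicate 3, and in TAA eyes 9 of the 13 lay below 0.

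Of 36 genes of oxidative phosphorylation, the mitochondrial chain that makes ATP, 30 lay below 0, with a median of -0.09, and 9 (25%) were lower without overlap against 12.2% of all genes. Sdhc of complex II lay at 0.29, 0.19 and 0.22 at day 7 and at 0.18, -0.03 and -0.22 at day 30 (-0.26 ± 0.16). Atp5a1 and Atp5g3 of the ATP synthase were at -0.24 ± 0.23 and -0.11 ± 0.09, and Ndufa4 and Ndufv1 at -0.15 ± 0.11 and -0.14 ± 0.10. None passed (smallest limma adjusted p of the list 0.684), and none of the 36 had an unadjusted p under 0.05, against 7.81% of all genes. The array medians were 0.058, 0.033 and 0.075 at day 7 and 0.047, -0.101 and -0.039 at day 30, so BSS day 30 replicate 1 lay among the day 7 arrays. Without BSS day 30 replicate 2 the median difference was -0.05 with 27 of 36 below 0. In DEX and TAA eyes 24 and 28 lay below 0.

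Of 33 ribosomal protein genes 27 lay below 0, with a median of -0.11. The array medians were 0.070, 0.054 and 0.070 at day 7 and 0.074, -0.117 and -0.022 at day 30. BSS day 30 replicate 1 was thus not below the day 7 arrays. The arrays did not overlap in 4 lower and 4 higher genes, 12.1% each way, which is near the 12.2% and 10.6% of all genes. Rpl10a was at -0.17 ± 0.13 and Rps3 at 0.42 ± 0.21. Without BSS day 30 replicate 2 the median was -0.04 with 25 below 0. Glycolysis had no common sign, with 10 of 17 above 0. Hk1, the hexokinase gene, was at 1.02 ± 0.79, but its day 30 arrays were 0.15, 0.62 and 1.92 and without BSS day 30 replicate 3 it was at 0.51. The phosphofructokinase genes differed in sign, with Pfkl at -0.58 ± 0.18 and Pfkp at 0.53 ± 0.18, both with overlapping arrays. The monocarboxylate transporter gene Slc16a1 was at -0.35 ± 0.13. Among the cholesterol synthesis genes 13 of 18 lay below 0, and 4 were lower without overlap (22.2%, against 12.2% of all genes), among them Stard4, a sterol carrier (-0.57 ± 0.21), Sc5d, a sterol desaturase (-0.32 ± 0.12), and Mvd of the mevalonate pathway (-0.29 ± 0.15).

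Chaperone and folding genes lay mostly above 0, 18 of 23 with a median of 0.16, and 8 were higher without overlap (34.8%, against 10.6% of all genes). None of the 23 had an unadjusted limma p under 0.05, against 7.81% of all genes. Atf4, the transcription factor of the integrated stress response, lay at 0.00, 0.01 and -0.37 at day 7 and at 0.25, 0.37 and 0.09 at day 30 (0.35 ± 0.18, limma adjusted p = 0.637). The endoplasmic reticulum chaperone genes Hspa5, Calr, Pdia3 and Pdia4 were at 0.39 ± 0.33, 0.28 ± 0.14, 0.30 ± 0.34 and 0.21 ± 0.11. Without 1 array the median ran from 0.12 without BSS day 30 replicate 1 to 0.19 without BSS day 30 replicate 3, with 15 to 19 genes above 0. In DEX eyes 17 of 23 lay above 0 and in TAA eyes 9 did. Hspb1, a small heat shock protein that the lens also makes, was at 0.54 ± 0.27 from 2 of the day 30 arrays, 0.44 and 1.17 against -0.07 on BSS day 30 replicate 2, and without the first of these it was at 0.58, without the other at 0.21 and without both at -0.046.

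Immediate early genes, which neurons switch on after activity, included large differences with overlapping arrays. Fosl2 lay at -0.85, -0.25 and -0.96 at day 7 and at 0.95, 0.49 and -0.29 at day 30 (1.07 ± 0.31, limma adjusted p = 0.430). The others were Egr3 (0.92 ± 0.32) and Nr4a3 (0.86 ± 0.22), highest on BSS day 30 replicate 1 at 1.56 and 1.07, and at 0.53 and 0.73 without that array. Nr4a1 (0.42 ± 0.17) and Egr2 (0.23 ± 0.20) did not overlap, 2 of 25 genes or 8%, against 10.6% of all genes. Over the 25 genes 14 lay above 0, with a median of 0.07 that was -0.05 without BSS day 30 replicate 1. The differences of Fosl2, Egr3 and Nr4a3 were 1.01, 1.01 and 0.67 in DEX eyes and 0.80, 0.76 and 0.71 in TAA eyes, and none passed in either.

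Of 24 circadian clock genes, 6 were higher without overlap (25%, against 10.6% of all genes) and 1 was lower (4.17%, against 12.2%). An unadjusted limma p under 0.05 was found for 1 of the 24, against 7.81% of all genes. The higher genes included the clock repressors Per2 (0.17 ± 0.15), Cry2 (0.19 ± 0.18) and Nr1d1 (0.12 ± 0.12), the melatonin enzyme gene Aanat (0.12 ± 0.11) and the dopamine receptor gene Drd4 (0.34 ± 0.20). Ciart, a clock-controlled repressor, was the lower gene, at 0.06, 0.09 and 0.26 at day 7 and at -0.12, -0.23 and -0.28 at day 30 (-0.35 ± 0.14). The activator gene Arntl (0.20 ± 0.15) and the output gene Dbp (-0.14 ± 0.14) overlapped. Ciart fell by 0.54 in DEX eyes (limma adjusted p = 0.0467), and so did Dbp, by 0.62 (adjusted p = 0.0310). The median of the clock list, 0.05, shrank to 0.00 without BSS day 7 replicate 1.

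The glucocorticoid response list, of interest because the other eyes were given steroids, had 20 of 31 genes below 0 and a median of -0.02. Tsc22d3, a steroid-induced leucine zipper gene, was at -0.45 ± 0.14 with overlapping arrays, and Fkbp5, a cochaperone of the steroid receptor, at -0.01 ± 0.29.

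The angiogenesis and hypoxia list had no common sign, with 7 of 18 genes above 0, 11 below and a median of -0.04. In 4 genes the arrays were lower without overlap (22.2%, against 12.2% of all genes) and in none were they higher (0%, against 10.6%). Among the 4 were the hypoxia-induced gene Ankrd37 (-0.42 ± 0.11), Pdk1, which inhibits pyruvate dehydrogenase (-0.35 ± 0.14), and the vasodilator gene Adm (-0.40 ± 0.18). Vegfa, the main angiogenic factor of the retina, was at 0.04 ± 0.15, and the highest difference of the list was 0.57. Among endothelial genes the VEGF receptor genes differed in sign, Kdr at 0.27 ± 0.18 and Flt1 at -0.41 ± 0.19. The extracellular matrix list had 13 of 28 genes above 0 and a median of -0.01, with 3 higher (10.7%) and 4 lower (14.3%) without overlap, near the shares of all genes. Its basement membrane chains Col4a3 and Col4a4 were at -0.69 ± 0.20 and -0.45 ± 0.27 without overlap, and Col9a1 at -0.53 ± 0.23. The antioxidant enzyme genes Gclm and Gclc, which make glutathione, were at -0.47 ± 0.19 and -0.23 ± 0.11, and the cell death gene Casp8 at 0.45 ± 0.15.

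The largest list difference belonged to the lens. The crystallin list was named for the proteins that fill the fibre cells of the lens. It also held Crym and Cryz, and Crym was in the Müller glia list as well. Its 16 measured genes had a median of 1.28 with 15 above 0, and the 9 other lens fibre genes had a median of 0.51 with 9 above 0. The crystallin medians of the day 7 arrays were 0.01, -0.29 and -0.02, and those of the day 30 arrays 1.27, -0.26 and 2.26. Crybb2 lay at 2.52 and 2.76 on BSS day 30 replicates 1 and 3 and at -0.16 on replicate 2, and the lens water channel gene Mip at 1.86 and 2.30 against 0.09. These high values were thus those of 2 arrays, and none of the genes passed (Crybb2 1.92 ± 1.12, Mip 1.45 ± 0.92). Of the 9 other lens fibre genes, 3 were higher without overlap (33.3%, against 10.6% of all genes). None of the 9 had an unadjusted limma p under 0.05. Leaving out BSS day 30 replicates 1 and 3, picked for these very values, was bound to lower the list and left only replicate 2 at day 30. The crystallin median was then -0.16 with 13 of 16 below 0. Of the 9 other lens fibre genes 6 still lay above 0, with a median of 0.06. In TAA eyes the crystallin median was 1.22 and in DEX eyes 0.28.

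Immune genes were high on an array that was also high in lens genes. The 27 interferon and antigen presentation genes had array medians of 0.06, -0.14 and 0.28 at day 7 and of 0.15, -0.21 and 0.62 at day 30. Their differences lay above 0 in 22 of 27, with a median of 0.16, but without BSS day 30 replicate 3 the median was -0.07 with 10 above 0, and without BSS day 7 replicate 2 it was 0.04 with 14. H2-Aa, an antigen-presenting class II gene, lay at 1.54, -0.05 and 0.44 at day 7 and at 1.74, -0.40 and 2.93 at day 30 (0.78 ± 0.55), and without both lens-high arrays it was at -1.04. The 20 microglia and leukocyte genes had 16 above 0 and a median of 0.12, which was 0.01 without BSS day 30 replicate 3 and 0.30 without BSS day 30 replicate 2. The microglial receptor gene Cx3cr1 was at 0.38 ± 0.29, from 0.63 and 0.67 on the lens-high arrays against -0.09 on the other, and without both it was at -0.12. Without both lens-high arrays 18 of 20 microglia genes and 23 of 27 interferon genes lay below 0. Only BSS day 30 replicate 2 was then left at day 30. It had the lowest median of the vehicle arrays in both lists, so these counts restate the level of a single array. Whether the lens signal had a part in the immune values was not tested.

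Some melanosome genes set BSS day 7 replicate 1 apart. Dct, an enzyme of melanin synthesis, lay at 2.37, -0.12 and 0.41 at day 7 and at 0.20, -0.85 and -0.05 at day 30, and the melanosome matrix gene Pmel at 1.72, -0.22 and 0.25 against 0.18, -0.71 and 0.14. Their differences of -1.12 ± 0.60 and -0.71 ± 0.37 became -0.38 and -0.14 without that array. Col18a1, a basement membrane collagen, was likewise high there, at 1.09, and its difference of -0.69 ± 0.29 was -0.27 without that array. Tyr, the tyrosinase gene, did not follow, at 0.03, -0.11 and -0.20 at day 7 and at 0.32, 0.38 and 0.43 at day 30 (0.47 ± 0.15). The 12 melanosome genes had a median difference of -0.07. Their mean on BSS day 7 replicate 1 was 0.82, against -0.13 to 0.10 on the other 5 vehicle arrays, but their median on that array was 0.23. The 18 pigment epithelium genes went the other way, with a mean of -0.14 there, the lowest of the day 7 arrays.

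The other arrays of day 7 shared a set of low values. On BSS day 7 replicates 2 and 3, 11 genes lay below -1, and all 11 lay above 0 on replicate 1. They included the nuclear noncoding RNA Malat1, at -1.50 and -1.75 against 0.06, the giant ubiquitin ligase gene Birc6, at -1.40 and -1.71 against 0.21, and Syne2, a giant nuclear envelope gene, at -1.06 and -1.15 against 0.27. Haus2, named above, was among them. The splicing factor gene Tra2b was lower there too, at -0.49 and -0.50 against 0.02. Malat1 was at 1.33 ± 0.56 between the days and at 1.89 without BSS day 7 replicate 1, and it did not pass in either fit. Without that array Birc6 was at 1.71 in place of 1.12, Syne2 at 1.19 in place of 0.73 and Tra2b at 0.72 in place of 0.55, and none passed. The lowest values in the fits without 1 array were 0.99 for Malat1, 0.75 for Birc6, 0.48 for Syne2 and 0.44 for Tra2b. Of 28 RNA splicing and chromatin genes, 19 lay above 0 with a median of 0.18, which was 0.08 without BSS day 30 replicate 2.

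**Figure D4:**
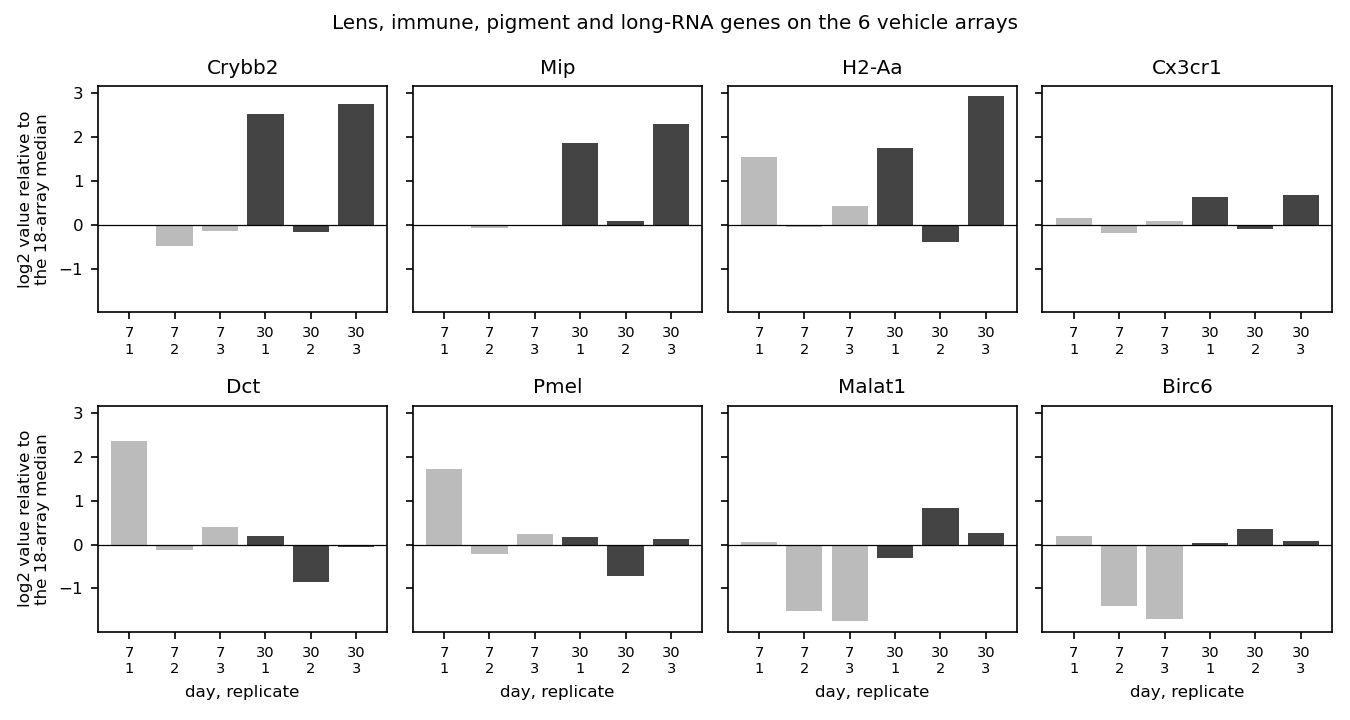
Relative log2 values (vertical axis) of 8 genes on the 6 vehicle arrays (horizontal axis, day above replicate), grey at day 7 and dark at day 30. Crybb2 and Mip are high on BSS day 30 replicates 1 and 3, Dct and Pmel on BSS day 7 replicate 1, and Malat1 and Birc6 are low on BSS day 7 replicates 2 and 3.

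**Figure D5:**
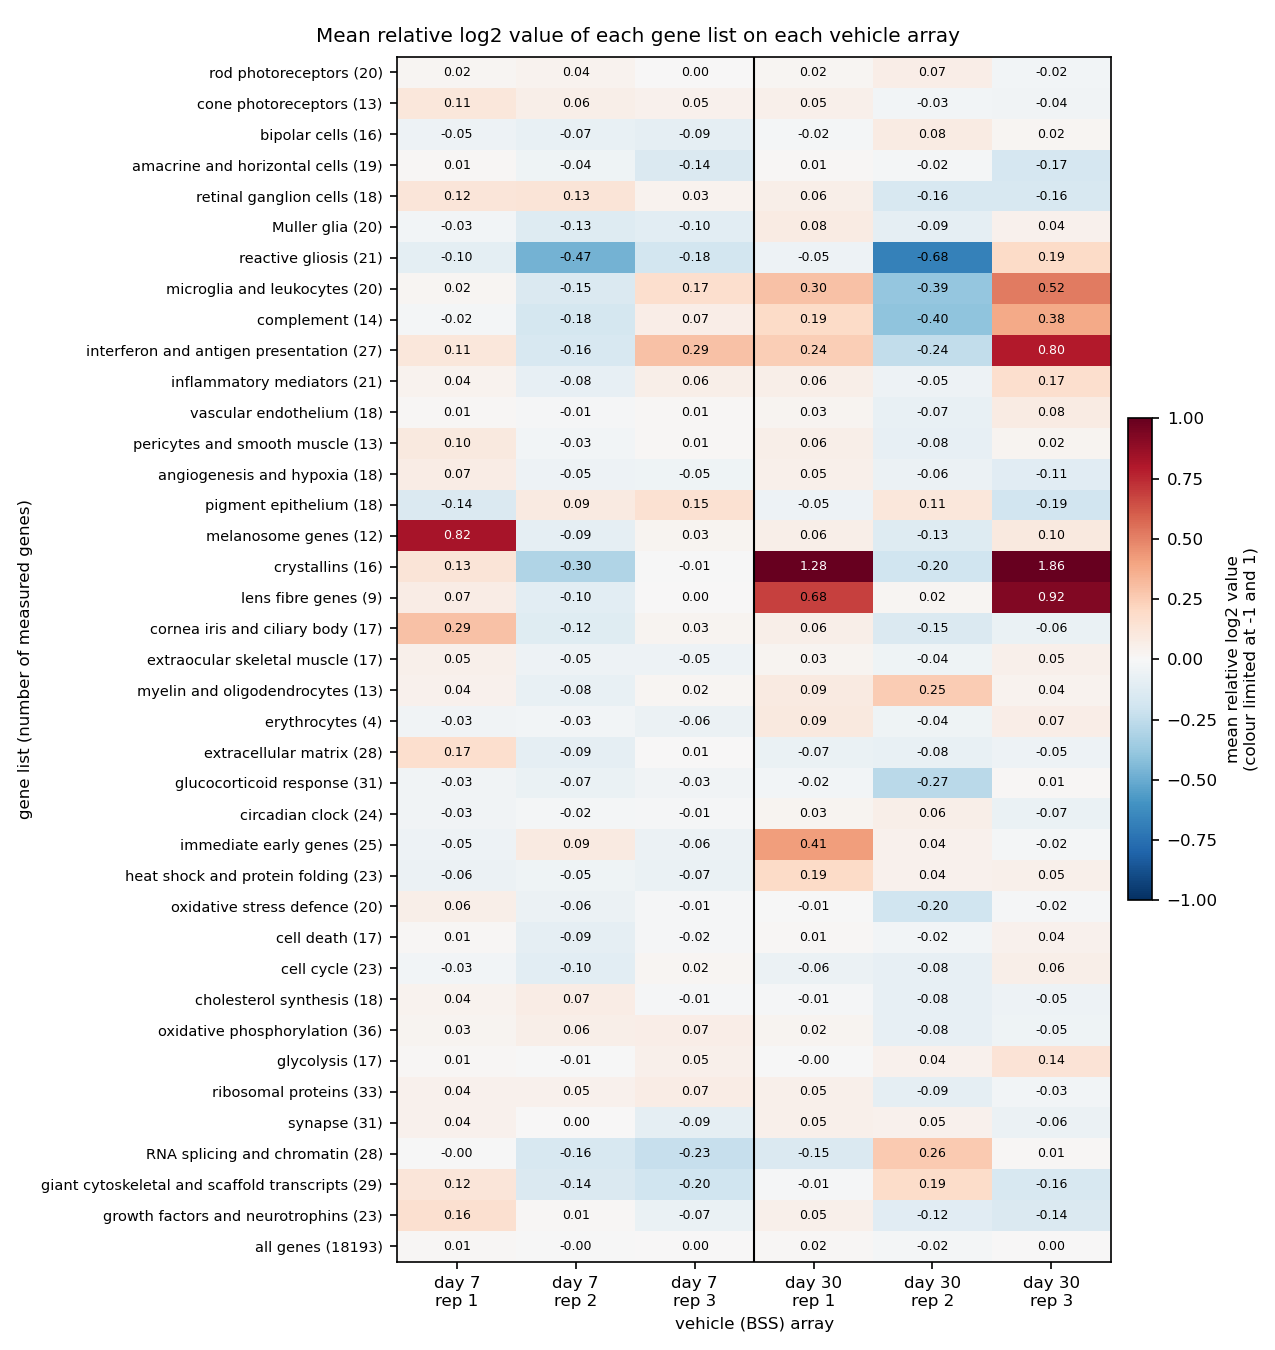
Mean relative log2 value (colour and printed number) of 38 gene lists and of all genes (vertical axis, with the number of measured genes) on the 6 vehicle arrays (horizontal axis). The crystallin list is highest on BSS day 30 replicates 1 and 3, at 1.28 and 1.86, while the rod list lies between -0.02 and 0.07 on all 6 arrays.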

How the data were processed

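Gene expression was measured on 18 Affymetrix arrays of mouse retina. Per the labels' protocols, biotinylated cRNA was made from total RNA in a procedure of 2 amplification cycles, which can weigh 3' ends of long transcripts. Per the submitters' processing notes the authors used RMA, with version, settings and array name not given in the sources used here. The deposited values were taken as log2, RMA's usual scale. All 45101 probe sets had an 18-array median within 1e-06 of 0, so the values are centred, and they ran from -4.50 to 5.71. Base 2, and higher values for more RNA, are assumed as usual for RMA.

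Probe sets were named from the platform annotation, with symbols updated through RefSeq gene IDs: 34945 named 1 gene (34741 found in RefSeq), 932 several, and 9160 are unnamed here. 64 control probe sets were left out. For the 9010 genes with more than 1 probe set, the probe set with the highest interquartile range (18 arrays, groups ignored) was kept, and no genes were filtered. limma 3.58.1 in R 4.3.3 was fitted to the 18 arrays with a mean for each group (12 residual and 5.21 prior degrees of freedom, median residual SD 0.179), with Benjamini-Hochberg adjustment over all genes and a threshold of 0.05. The fit was checked on simulated data. The number of arrays limits the precision. With 3 against 3 arrays an exact permutation test cannot go below 0.10, so single values carry none.

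Members, comparisons and the 38 gene lists (836 genes, 749 measured) were chosen with earlier results of these data known. Named were genes that passed without overlap (up to 12 per direction, filled up with the largest non-overlapping differences among the 200 genes of smallest p), up to 4 members of smallest p per list, members whose array values show a group, and 7 fixed genes that were measured. Genes with clone names were not named otherwise. Promoter sequences are RefSeq's (GRCm38.p6). Alternatives were the vehicle arrays alone, array weights, median centring, quantile normalization, all probe sets or their mean, a replicate block, robust moderation, a filter to genes of above-median interquartile range and leaving out each array. Leaving out the widest TAA arrays or the lens-high arrays was added after the data were seen.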

Additional observations from a re-analysis of the deposited data

How the results depend on the processing

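The count of 5 genes that fell was the same with arrays centred on their medians, with every probe set tested on its own, with robust moderation and with genes of above-median interquartile range, and it was 4 with the mean of a gene's probe sets (3 of the 5). It was 3 with the vehicle arrays alone, 527 with array weights (166 higher, 361 lower), 50 with quantile normalization (9 higher, 41 lower), 11 without the widest TAA arrays and 0 without the lens-high day 30 arrays, where 982 genes had an unadjusted p under 0.05. The 5 genes were among the calls with array weights, with quantile normalization and without the widest TAA arrays. Fits without 1 array gave 0 to 5 calls. An array's weight is set by its distance from its group's other arrays. For vehicle against DEX, array weights gave 1728 genes and fits without 1 array 0 to 1. For vehicle against TAA these were 17 and 0 to 2. The causes were not tested.

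Of 119 genes examined, 112 kept their sign in all 16 settings. Many of them were named because their days did not overlap. For such genes leaving out arrays could not turn the sign, so the count is no measure of robustness. Without the lens-high arrays Crygd was at -0.20, Cx3cr1 at -0.12, H2-Aa at -1.04, H2-Eb1 at -0.27 and Hspb1 at -0.046. Only BSS day 30 replicate 2 was then left at day 30. Fkbp5, near 0 throughout, was at 0.0023 with the mean of its probe sets, 0.0061 with quantile normalization and between -0.11 and 0.065 without 1 array (0.0092 and 0.024 in others that turned), and Vegfa lay between -0.017 and 0.12 without 1 array.

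Vehicle samples with the same replicate number showed correlations of their deviations of 0.0914, 0.0571 and 0.189, all positive and each the highest for its own number, but not all above 0.1, so the numbers were not taken to pair the samples. With the replicate block 7 genes passed, the 5 and also Acoxl and Pcp4l1 (0.94, adjusted p = 0.00952), and no gene passed in either comparison with a drug. Values without a true level give no signal over background, so low signals could not be set apart.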
